A study of Schizosaccharomyces pombe with 2 samples.

Results

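The genes described here encode 10 enzymes of glycolysis and ethanol fermentation in the fission yeast Schizosaccharomyces pombe: hxk1, hxk2, pgi1, fba1, tpi1, tdh1, pgk1, gpm1, pyk1 and adh1. They were taken by current symbol or systematic identifier from the spots of an open reading frame array, and 9 of the 10 were found among 4868 gene names. No spot carried tdh1, of a glyceraldehyde-3-phosphate dehydrogenase, by its symbol or as SPBC32F12.11. On each of 2 arrays, RNA from cells labelled pob3 competed with RNA from cells labelled wt (wild type), with pob3 RNA in Cy5 on array 1 and in Cy3 on array 2, and each gene was spotted in duplicate on an array. Pob3 is a subunit of FACT, a chaperone that moves histones aside for RNA polymerase. The comparison asks which transcripts differ in the pob3 strain. The labels give neither the allele, the growth medium nor the carbon source, and leave unsaid whether each array had its own culture. The p-values below thus reflect array-to-array scatter alone, in large part pooled across genes, and that scatter may be technical. Since the dyes were swapped, a gene's difference between the arrays cannot be told apart from a dye effect. Ratios are log2 of pob3 over wt after background correction and intensity-dependent loess, and the 2 arrays limit their precision.

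Glycolysis turns glucose into pyruvate. Hexokinases trap glucose as a phosphate, an isomerase, a kinase and an aldolase split it into trioses, and the later steps make ATP from these. In fermenting yeast pyruvate is then decarboxylated and reduced to ethanol by alcohol dehydrogenase, which regenerates the NAD that glycolysis needs. Transcripts of these enzymes are among the most abundant of a yeast cell growing on sugar.

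Across the 2 arrays 0 of the 9 glycolysis and fermentation genes passed an adjusted p of 0.05 (limma, Benjamini-Hochberg over 4766 genes), and 0 had an unadjusted p under 0.05. Of all genes in the fit, 0.525% passed the adjusted and 7.41% the unadjusted threshold. A ratio past 2-fold that both arrays shared in direction was seen for 0 of the 9 members and 0.986% of all genes. For 5 of the 9, fba1, tpi1, gpm1, pyk1 and adh1, the arrays held no ratio at all, because the signal stood at the scanner maximum of 65535 in both channels on all 4 spots. Only hxk1 and pgk1 were unsaturated throughout. The hexokinase gene hxk1 lay higher in pob3 on both arrays and the hexokinase gene hxk2 lay lower on array 2, but neither difference passed the test.

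**Figure D1:**
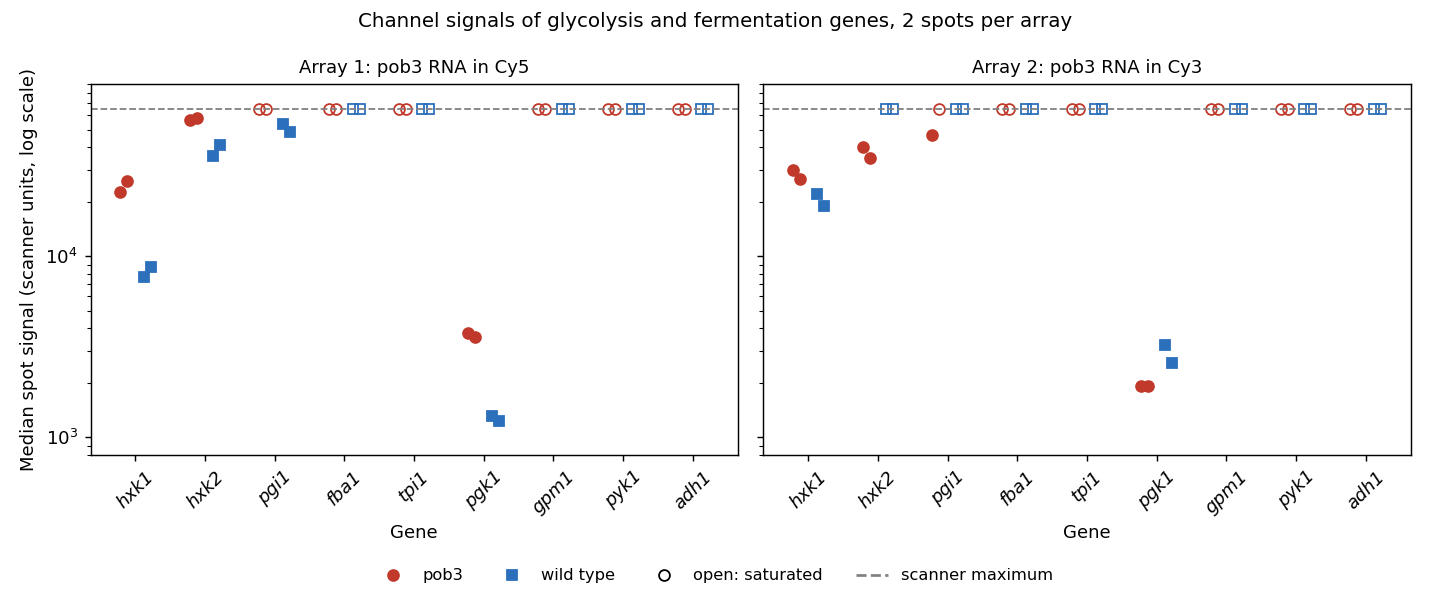
Median spot signal in scanner units (log axis) of the 9 glycolysis and fermentation genes, with pob3 as red circles and wild type as blue squares, 2 spots per array, and open symbols at the scanner maximum of 65535 (dashed line). From fba1 to adh1 all genes but pgk1 lie at the maximum in both strains on both arrays.

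Saturation marked these genes far more than the array at large. Both channels were saturated on every spot for 5 of 9 members (55.6%), against 88 of all 4868 gene names (1.81%). A saturated reading on any spot was seen for 7 of 9 members (77.8%) and for 5.36% of all gene names. More spots were saturated in Cy5 than in Cy3 on both arrays. In Cy5 the share of gene spots was 4.61% and 4.59% for the spot files of array 1, where it carried pob3 RNA, and 3.94% and 3.85% for those of array 2, where it carried wild-type RNA. In Cy3 it was 2.25% and 2.19% on array 1 and 3.42% and 3.40% on array 2.

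Hexokinases carry out the first step. The hxk1 spots read 22601 and 26045 in pob3 against 7718 and 8771 in wild type on array 1. On array 2 they read 30025.5 and 26706.5 against 22217.5 and 18943.5. The pob3 reading was thus the higher on all 4 spots, which are duplicates within 2 arrays. On array 1 the median gene was also brighter in the pob3 channel. Before loess the log2 ratios of hxk1 were 1.52 and 1.54 on array 1, where all genes had medians of 1.54 and 1.54, and 0.47 and 0.52 on array 2, where all genes had -0.24 and -0.25. After loess they were 0.10 and 0.12 on array 1 and 0.64 and 0.68 on array 2. The duplicate spots thus lay close together, and the difference from wild type stood mostly on array 2.

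The mean log2 ratio of hxk1 was 0.38 ± 0.39 (SD, n = 2; limma adjusted p = 0.803), with a 95% interval from -0.20 to 0.97 in log2. The mean is a 1.30-fold higher level. The SD between arrays was as large as the mean. Of all genes in the fit, 12.6% had a mean at or above that of hxk1, and 26.8% lay above 0 on both arrays as it did. With each spot file centred on its median in place of loess, hxk1 had -0.02 on array 1 and 0.74 on array 2, so its sign on array 1 turned with the normalisation.

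The second hexokinase gene, hxk2, was brighter and reached the scanner maximum in part. On array 1 it read 56336.5 and 58430 in pob3 against 35996 and 41071.5 in wild type, all below the maximum. On array 2 it read 39969 and 35156 in pob3, while both wild-type spots stood at 65535. The raw array 2 ratios of -0.70 and -0.89 are therefore upper bounds. After loess they were -0.61 and -0.82, values that also depend on the curve. On array 1 the ratios after loess were 0.03 and -0.04, so the arrays did not place hxk2 alike.

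The mean log2 ratio of hxk2 was -0.36 ± 0.50 (SD, n = 2; limma adjusted p = 0.824), with a 95% interval from -0.96 to 0.24 that takes the saturated readings at face value. The array 1 ratio depended on how the loess curve was set. Before loess hxk2 had 0.64 and 0.50 on array 1, well under the 1.54 of all genes, and the curve added -0.61 and -0.54 at its brightness, against -1.42 and -1.42 at that of hxk1. When saturated spots were kept from setting the curve, hxk2 had -0.58 on array 1 and -0.63 on array 2, a mean of -0.61 ± 0.03 (limma adjusted p = 0.816). With median centring it had -0.98 and -0.55, and with print-tip loess -0.41 and -0.50. Under these 3 alternatives hxk2 lay below 0 on both arrays, and it passed the test under none of them.

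Within an array the hexokinase genes can be set against each other as ratios. The log2 ratio of hxk1 exceeded that of hxk2 by 0.11 on array 1 and by 1.37 on array 2, where wild-type hxk2 was saturated. Over loess without saturated spots, median centring and print-tip loess the difference was 0.68, 0.96 and 0.65 on array 1 and 1.30, 1.29 and 1.39 on array 2. It was not tested.

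**Figure D2:**
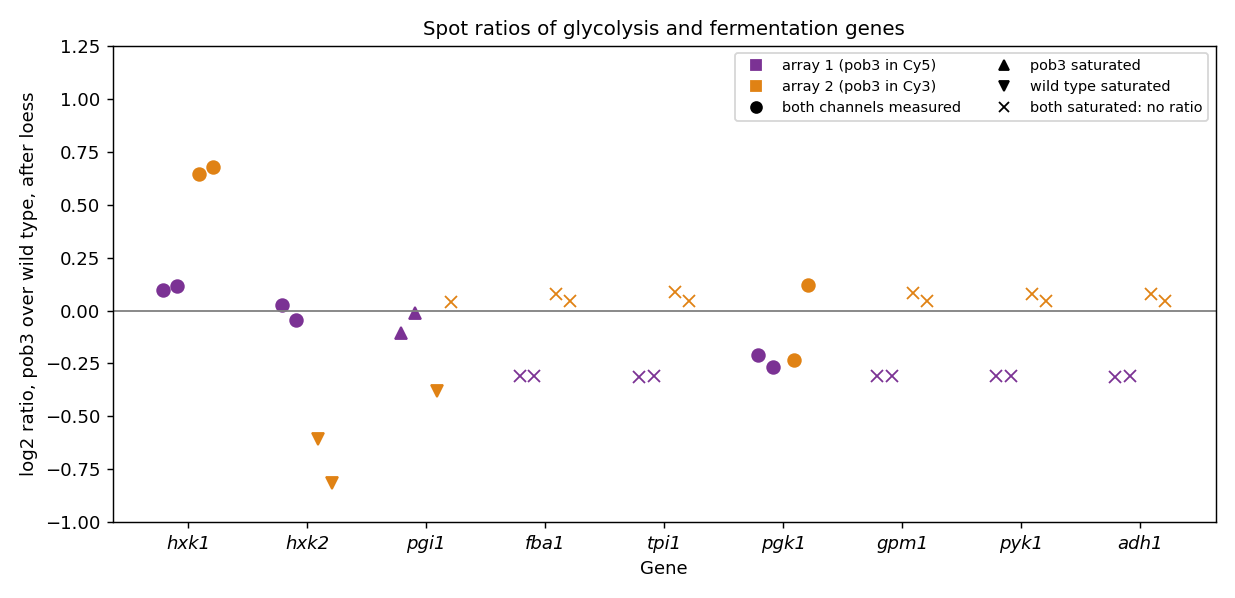
Log2 ratio of pob3 over wild type after loess for each spot of the 9 genes, with array 1 in purple and array 2 in orange. Circles are spots with both channels measured, triangles have 1 channel saturated (up: pob3, down: wild type) and crosses have both saturated; the crosses of each array form a flat row near -0.31 and between 0.04 and 0.09.

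The isomerase gene pgi1, whose enzyme turns glucose 6-phosphate into fructose 6-phosphate, was capped in opposite strains on the arrays. On array 1 pob3 stood at 65535 on both spots against 53539 and 48923.5 in wild type. On array 2 wild type stood at 65535 on both spots, against 47047 on the first pob3 spot and 65535 on the second. In each array the Cy5 channel was thus at the maximum, whichever strain it carried. The raw ratios of 0.28 and 0.41 on array 1 are thus lower bounds, that of -0.47 on the first array 2 spot is an upper bound, and the second array 2 spot had no ratio. After loess the array values were -0.06 and -0.17. They were -0.75 and -0.07 with loess without saturated spots, and -1.20 and 0.01 with median centring. The fitted mean of -0.11 ± 0.08 (SD, n = 2; limma adjusted p = 0.934) therefore gives no direction for pgi1.

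The aldolase gene fba1, which splits fructose 1,6-bisphosphate, and the triosephosphate isomerase gene tpi1, which interconverts the resulting trioses, gave no ratio, nor did the phosphoglycerate mutase gene gpm1, the pyruvate kinase gene pyk1 and the alcohol dehydrogenase gene adh1. Before loess their ratios were all near 0, between -0.013 and -0.0083 on the first spots of array 1 and between 0.0081 and 0.016 on those of array 2, since both channels held the same capped number. After loess they were -0.31 for each of the 5 genes on array 1 and between 0.06 and 0.07 on array 2. The same values were fitted to every gene that was saturated in this way: the 82 such genes in the fit had means between -0.13 and -0.12. These numbers are the shift that loess applied at the top of the scale, and they say nothing about the level of fba1, tpi1, gpm1, pyk1 or adh1 in either strain beyond that it was above the range of the scan.

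The phosphoglycerate kinase gene pgk1, whose enzyme makes the first ATP of the pathway, was read well below the maximum on every spot. Its pob3 signals were 3758.5 and 3604.5 on array 1 and 1914.5 and 1926.5 on array 2. Its wild-type signals were 1307 and 1236.5 on array 1 and 3218.5 and 2566 on array 2. In each array the strain labelled with Cy5 was the brighter. All these signals lay below the median gene signal of their channel. On array 1 that median was 6300 and 6249 in Cy5 and 2009 and 1977.5 in Cy3. On array 2 it was 5364 and 5082.5 in Cy5 and 4441.5 and 4217 in Cy3. Whether these spots report pgk1 was not tested. After loess the spots had -0.21 and -0.27 on array 1 and -0.23 and 0.12 on array 2, so that the duplicate spots of array 2 fell on opposite sides of 0.

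The mean log2 ratio of pgk1 was -0.15 ± 0.13 (SD, n = 2; limma adjusted p = 0.931), with a 95% interval from -0.70 to 0.41. Its array values of -0.24 and -0.06 lay inside the spread of its own spots. The interval leaves room for a decrease or an increase, and the p does not show equal levels.

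**Figure D3:**
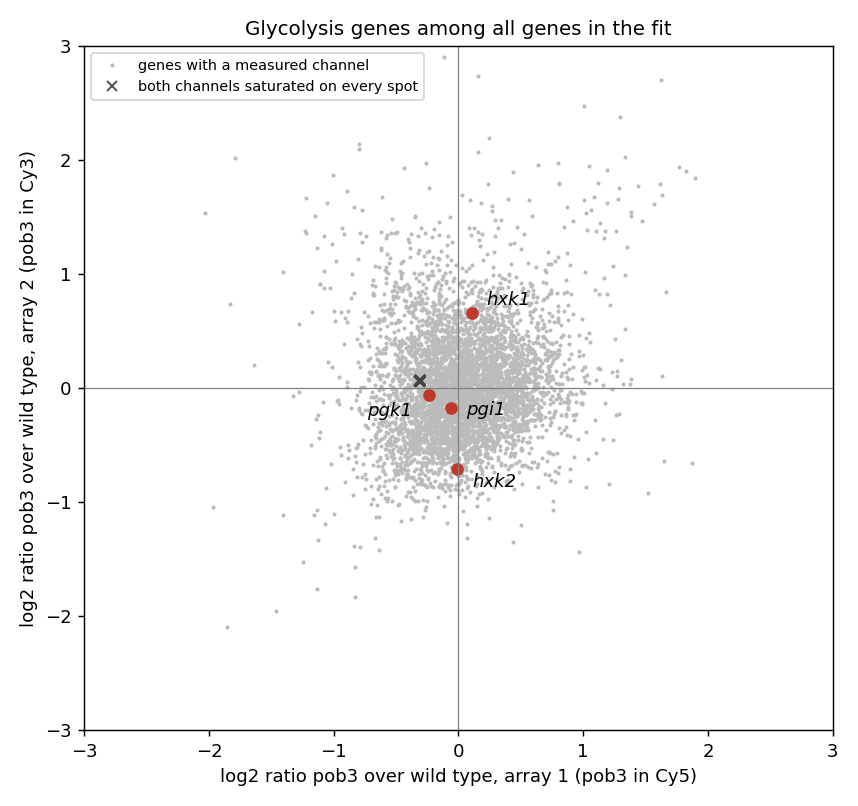
Log2 ratio of pob3 over wild type on array 1 (horizontal) and array 2 (vertical) for the 4766 genes in the fit, with hxk1, hxk2, pgi1 and pgk1 in red and the 82 genes saturated in both channels on every spot as crosses, which fall on 1 point at about -0.31 and 0.06. The axes end at 3 and leave out 4 genes; the 4 named genes lie inside the main cloud.

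As a list, the 9 genes had a median log2 ratio of -0.12 (-0.31 on array 1 and 0.06 on array 2), against 0.02 for all genes in the fit. That median is a saturated gene's value. Over the 4 genes with at least 1 unsaturated reading it was -0.13, with means from -0.36 to 0.38. Of these 4, hxk1 was above 0 on both arrays, as 26.8% of all genes were, and hxk2 and pgk1 were below, as 25.7% were, with hxk2 at -0.0082 on array 1. The capped readings of pgi1 gave no direction.

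The remaining genes of glycolysis and fermentation were read from a list of 15 symbols, of which 11 were on the array. Of these, 0 passed the adjusted threshold in limma, against 0.525% of all genes, and 2 had an unadjusted p under 0.05, against 7.41%. The phosphofructokinase gene pfk1, of the step after pgi1, was unsaturated and had 0.66 on array 1 and -0.27 on array 2 (adjusted p = 0.931). Among pyruvate decarboxylase genes, which feed adh1 with acetaldehyde, pdc101 was saturated in both channels on every spot like adh1 itself. The other pyruvate decarboxylase genes pdc201, pdc102 and pdc202 were unsaturated, and their values are given without a test between them.

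The highest of them was pdc201, with 0.62 on array 1 and 1.07 on array 2 and a mean of 0.84 ± 0.31 (adjusted p = 0.387). Its 4 spots had 0.20, 1.04, 0.79 and 1.34, all above 0. With the second spots alone the mean was 1.19 and passed the test (adjusted p = 0.0397), while with the first spots alone it was 0.50 and did not (adjusted p = 0.726). The pdc102 arrays had -0.58 and -0.53, a mean of -0.56 ± 0.03 (adjusted p = 0.669). Its duplicate spots lay apart, at -0.87 and -0.28 on array 1 and -0.85 and -0.22 on array 2, and its mean was -0.86 with the first spots alone and -0.25 with the second. The arrays of pdc202 had 0.26 and 0.25, a mean of 0.25 ± 0.006 (adjusted p = 0.878). The alcohol dehydrogenase genes adh4 and adh8 had means of 0.08 ± 0.08 and 0.28 ± 1.06, the latter with -0.47 and 1.03 on the arrays.

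A second glyceraldehyde-3-phosphate dehydrogenase gene, gpd3, chosen after its values were seen, stands for the enzyme step whose tdh1 was not found. It was saturated in both channels on array 1. On array 2 pob3 stood at 65535 on both spots against 43014 and 39841 in wild type, so that the pob3 reading was the higher on both spots and capped. After loess the ratios there were 0.71 and 0.79, values that depend on the curve. Array 1 gave no ratio to set beside them, and the fitted adjusted p of 0.926 includes the capped values of array 1.

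Names shared by several loci limited this step and the enolase step. A spot named eno1, a name that 2 enolase loci (eno101 and eno102) carry, was saturated in both channels on all 4 spots. A spot named gpd1 may be the glycerol-3-phosphate dehydrogenase gene of that symbol or tdh1, of which gpd1 is an older name. It had 0.17 and 0.74 on the arrays (mean 0.46 ± 0.40, adjusted p = 0.756). A further spot named gpd1-x2 matched no locus and had -0.12 and -0.41 (mean -0.27 ± 0.20, adjusted p = 0.875). Neither was counted as tdh1, but the gpd1 spot was counted in the glycerol list below.

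Neighbouring carbon pathways showed no gene past the threshold either. Over 6 lists, 1 of them the remaining glycolysis and fermentation genes above, 63 of 72 genes were on the array. In the fit were 62, of which 61 had at least 1 unsaturated reading and 8 of these some saturation. Of the 62, 0 passed an adjusted p of 0.05 in limma, against 0.525% of all genes. An unadjusted p under 0.05 was seen for 9, against 7.41% of all genes, and 2 of the 9 were pdc201 and pdc102. The 61 with an unsaturated reading had a median log2 ratio of -0.07. Of these 61, 17 lay above 0 on both arrays and 23 below, against 26.8% and 25.7% of all genes.

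Among genes of pyruvate and acetyl-CoA metabolism (8 in the fit, median -0.02) the lowest was mae1, of a malate permease, with -0.83 on array 1 and -1.57 on array 2. Its mean was -1.20 ± 0.52 (adjusted p = 0.106). Its spots lay close together, at -0.84 and -0.81 on array 1 and -1.55 and -1.58 on array 2. It passed the threshold with print position medians subtracted (-1.10, adjusted p = 0.0386) and with the first or the second spots alone (-1.19 and -1.20, adjusted p = 0.0485 and 0.0471). In these settings 49, 49 and 53 of all genes passed, against 25 in the main fit. Over 14 alternatives the limma adjusted p of mae1 ranged from 0.0386 to 0.568, the highest with median centring. The pyruvate carboxylase gene pyr1 had 0.56 ± 0.24 (adjusted p = 0.672) and pdb1, of the pyruvate dehydrogenase E1 beta subunit, had -0.53 ± 0.16 (adjusted p = 0.697).

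Genes of gluconeogenesis and glucose repression (12 in the fit) had a median of -0.21, with 6 below 0 on both arrays and 1 above. Of all genes 25.7% lay below 0 on both arrays and 26.8% above. Of the 12, 0 had an unadjusted p under 0.05 in limma, and the list was not tested as a set. Those with the smallest p were ssp2, of the AMP-activated kinase (-0.54 ± 0.27, adjusted p = 0.701), fbp1, of fructose-1,6-bisphosphatase (-0.48 ± 0.23, adjusted p = 0.746), and tup11, of a corepressor (-0.48 ± 0.26, adjusted p = 0.752). The glycerol list (6 in the fit, median 0.23) counts the gpd1 spot, which may be tdh1. Its other genes had means of 0.69 (gpd2), 0.43 (dak2), 0.03 (gut2), -0.09 (dak1) and -0.26 (gld1). The list was led by gpd2, of glycerol-3-phosphate dehydrogenase, with 0.80 and 0.58 on the arrays and a mean of 0.69 ± 0.15 (limma adjusted p = 0.525). Its pob3 signals were 52971 and 60506.5 on array 1 but 997 and 1361.5 on array 2, and with median centring its mean was 0.24. The dihydroxyacetone kinase gene dak2 had a mean of 0.43 ± 0.56 (limma adjusted p = 0.779), from 0.83 on array 1 and 0.04 on array 2. Its array 2 spots had 0.28 and -0.21.

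In the trehalose and pentose phosphate list (10 in the fit, median 0.02) the trehalose genes had unlike values. The synthase gene tps1 had 0.54 ± 0.19 (adjusted p = 0.697), the trehalase gene ntp1 had 0.43 ± 0.24 (adjusted p = 0.769) and the phosphatase gene tpp1 had -0.61 ± 0.15 (adjusted p = 0.632). The tricarboxylic acid cycle list had 15 genes in the fit and a median of -0.07. Of the 2-oxoglutarate dehydrogenase complex, kgd1 and kgd2, named for their small p, were below 0 on both arrays, as 25.7% of all genes were. The mean was -0.70 ± 0.16 for kgd1 (adjusted p = 0.518) and -0.59 ± 0.11 for kgd2 (adjusted p = 0.651). A further subunit gene, dld1, of the pyruvate and acetyl-CoA list, had 0.29 and -0.18 on the arrays (mean 0.05 ± 0.33, adjusted p = 0.977). The NADP-dependent isocitrate dehydrogenase gene idp1 had 0.58 ± 0.07 (adjusted p = 0.659). Some of these means were smaller under another normalisation: 0.32 for pyr1 and 0.33 for idp1 with median centring, and -0.30 for fbp1, -0.34 for ssp2, -0.30 for tpp1 and 0.17 for the gpd1 spot with print-tip loess. With the first spots alone pdc202 had 0.16.

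**Figure D4:**
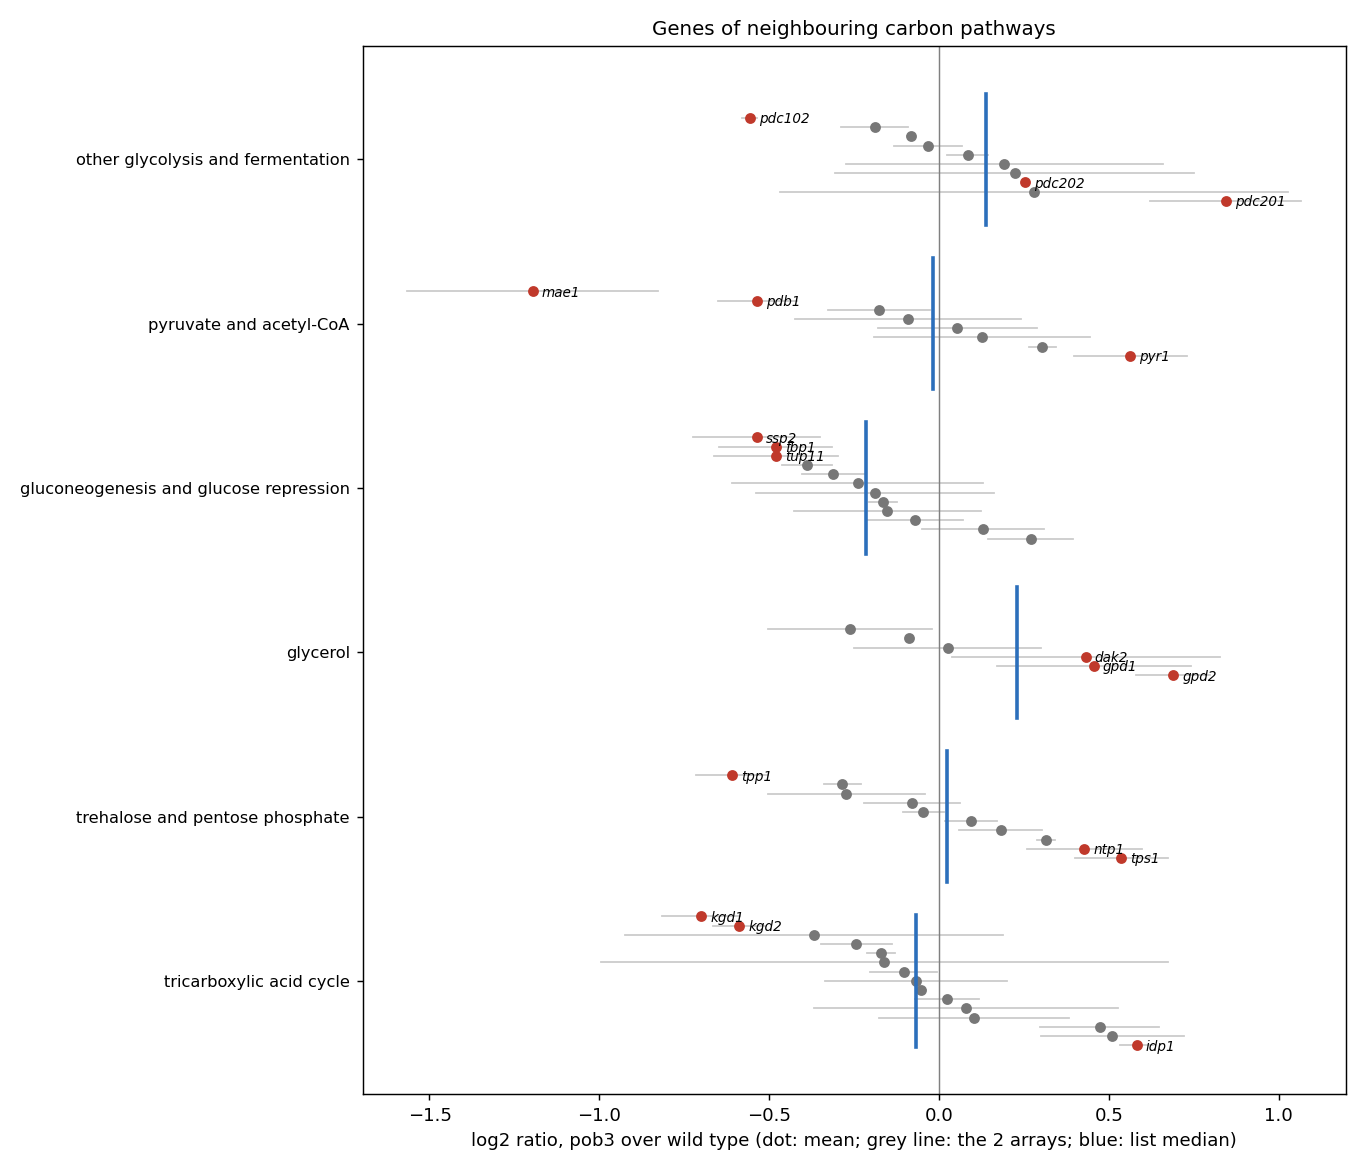
Log2 ratio of pob3 over wild type for 61 genes of 6 carbon pathway lists that had an unsaturated reading. The remaining glycolysis and fermentation genes form 1 of the lists. The mean is a dot, the 2 arrays are joined by a grey line and the list median is blue. Genes named by the smallest p of their list are red. The lowest mean is that of mae1 at -1.20 and the highest that of pdc201 at 0.84.

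Facts of the arrays that bear on these genes are few. The pob3 transcript (SPBC609.05) had a log2 ratio of -1.26 ± 0.20 (limma adjusted p = 0.0612) and was above background in the pob3 channel on all 4 spots. Without a described allele, a probe outside an altered part would check nothing. Across all genes the ratios of the arrays had a Pearson r of 0.155, given as a description, since genes do not replicate each other. Between the duplicate spots, r was 0.754 on array 1 and 0.843 on array 2.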

How the data were processed

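Scanner values were deposited as intensities: per the file headers, median signal and median local background per channel. Each duplicate has its own file of 5760 spots. The sources used here name no quantification software. A further deposited table has log2 ratios by the authors, which per the series' design text followed intensity-dependent Lowess in GeneSpring. It was used only as an alternative: its replicate 2 column had an r of 0.907 and 0.948 with the pob3 over wild-type ratios of this work, its replicate 1 column held 0 values on gene spots, and the glycolysis genes were not analysed from it. Its column medians on the 2 spots were -0.12 and -0.13 for replicate 1 and -0.0072 and -0.04 for replicate 2.

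The R package limma 3.58.1 (R 4.3.3) removed background by normexp with an offset of 50 and fitted a loess curve per file, to which control spots did not contribute. Spots were kept where the flag was 0 and either channel exceeded background (2 background SDs in Cy3, 1.5 times background in Cy5). Signs were turned to pob3 over wild type, and the spots of an array averaged. The lmFit and eBayes test against 0 used Benjamini-Hochberg adjustment over 4766 genes at 0.05, and with 1 residual degree of freedom per gene it rests on a spread shared across genes (9.71 prior degrees of freedom). Saturated means a signal of 65535; such spots stayed in the fit. Of the genes in the fit 21 were higher and 4 lower. The test was checked on simulated data, where its share of false calls could exceed the nominal rate.

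Current names came from a RefSeq gene table (assembly ASM294v3); no coordinates or sequences were used. The members and lists were chosen with earlier results of these data known. Named are all members, pob3 and, per list, genes past the threshold or over 2-fold on both arrays, filled up to 3 by smallest p. The genes or spots pfk1, pdc101, adh4, adh8, gpd3, dld1, eno1 and gpd1-x2 were named after their values were seen.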

Additional observations from a re-analysis of the deposited data

How the results depend on the processing

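The 3 loess settings (without saturated spots, on gene spots alone, without spots carrying a quality flag) and the median over 4 genes were chosen after seeing the data. The count of 0 glycolysis and fermentation genes past the threshold stayed 0 in all 14 alternatives that held them. Since fba1, tpi1, gpm1, pyk1 and adh1 held no ratio, this count bears at most on hxk1, hxk2, pgi1 and pgk1. The hxk1 mean ranged from 0.31 to 0.57 (adjusted p 0.702 to 0.993), that of hxk2 from -0.76 to -0.24 (0.776 to 0.993) and that of pgk1 from -0.32 to -0.07 (0.881 to 0.993), each with its sign kept. The pgi1 mean ranged from -0.59 to 0.015, the latter with the second spots alone. With a single array, a value with no test, hxk1 had 0.11 or 0.66, hxk2 -0.0082 or -0.71, pgi1 -0.06 or -0.17 and pgk1 -0.24 or -0.06. The median of -0.12 over 9 genes was -0.65 with median centring and -0.45 with loess without saturated spots. Both are again the value of a gene saturated in both channels, and say nothing about the pathway. The median was 0.06 without replicate 1 and -0.31 without replicate 2, each a saturated gene's value on 1 array. With saturated spots left out, hxk1 and pgk1 alone remained, with a median of 0.12. The settings that kept fba1, tpi1, gpm1, pyk1 and adh1 only shifted a capped number, since every spot was saturated in both channels. The count of 0 related pathway genes was 1 with print position medians subtracted and with the first spots alone, and 2 with the second spots alone. The count of 25 of all genes fell to 2 (median centring), 3 (loess without saturated spots), 10 (saturated spots left out), 11 (offset 10) and 14 (loess without quality-flagged spots). It grew to 38 (intensity trend), 39 (both channels above background), 43 (loess on gene spots), 45 (no background correction), 49 (print position medians), 49 (first spots), 53 (second spots), 56 (print-tip loess) and 68 (submitters' values for replicate 2). These counts do not share 1 denominator. The main fit tested 4766 genes, against 4548 with saturated spots left out and 3133 with the submitters' values, which kept array 1 from this work. The cause of the shifts in the count was not tested. Single arrays give no count, having no residual degrees of freedom. The ratio within each array already pairs the strains, so no further replicate block could be added. Scanner saturation sets the limit for the brightest genes.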
